A study of Mus musculus with 12 samples.

Results

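Glycolysis and hypoxia response genes were followed as a set of 37 listed genes in cells sorted from mouse embryos, and 34 of them were found on the array by a platform symbol of their own, out of 18193 genes measured. Gpi1 and Eno1 had no probe set under these symbols, and the probe sets of Bnip3l were shared with its pseudogene, so these 3 were left out. A probe set is a group of short oligonucleotides read together as a single value, and some match several transcripts. Each gene was represented by its brightest. The 34 members comprise 10 genes of hexose entry and upper glycolysis, 4 of lower glycolysis, 4 of pyruvate and lactate handling, 2 that set fructose-2,6-bisphosphate, 6 of oxygen sensing and 8 other targets of the hypoxia response.

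The cells came from embryos at embryonic day 8.0 of a line named ER71 EYFP on a C57BL/6 and FVB mixed background. Embryos were either wild type or mutant for ER71, the ETS transcription factor now called Etv2 that blood and endothelial precursors need. They were dissociated with trypsin and sorted into cells positive or negative for EYFP, a yellow fluorescent protein. The 4 groups of 3 arrays were wild-type positive, wild-type negative, mutant positive and mutant negative cells, and all of them belonged to the same EYFP line. The labels used here give neither the sequences that drive EYFP nor the deleted part of ER71. They also do not say whether arrays of a group stand for separate embryos or pools, so p-values measure the spread between these arrays, which may be technical in part. In wild types the arrays numbered 1 differed from the others in sex-linked genes (given below). Not all wild-type arrays of a group can therefore be repeats of the same sample.

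Glycolysis splits glucose to pyruvate, which cells either pass to mitochondria or reduce to lactate. When oxygen is short, the prolyl hydroxylases encoded by the Egln genes no longer mark the subunits HIF-1α (Hif1a) and HIF-2α (Epas1) for destruction by the Vhl ubiquitin ligase. The subunits then pair with Arnt and bind a short core in the DNA of target genes, among them glucose transporters, most glycolytic enzymes, Pdk1 and the prolyl 4-hydroxylases of collagen. Embryos at this stage live in low oxygen before a circulation is established, and Epas1 is best known from endothelium.

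The bases before the start sites of 4 members that changed in these cells (Ddit4, P4ha2, Pfkp and Egln3) and of Ldha, a textbook target that passed no test here, are shown because these genes are compared below. They are RefSeq sequences of the build GRCm38.p6, 250 bases each, written 5′ to 3′ along the gene, with every ACGTG or GCGTG core in capitals. A core on the other strand reads CACGT or CACGC, and overlapping cores form 1 capital run. The windows are, in order, chr10:59951771-59952020 on the minus strand, chr11:54100674-54100923 on the plus strand, chr13:6648772-6649021 on the minus strand, chr12:54203875-54204124 on the minus strand and chr7:46845554-46845803 on the plus strand.
Ddit4: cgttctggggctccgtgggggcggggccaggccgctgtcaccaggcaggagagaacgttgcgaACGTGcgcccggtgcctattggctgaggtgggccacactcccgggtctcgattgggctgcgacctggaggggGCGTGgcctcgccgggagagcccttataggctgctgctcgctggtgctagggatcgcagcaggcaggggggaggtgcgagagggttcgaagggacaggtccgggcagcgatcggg
P4ha2: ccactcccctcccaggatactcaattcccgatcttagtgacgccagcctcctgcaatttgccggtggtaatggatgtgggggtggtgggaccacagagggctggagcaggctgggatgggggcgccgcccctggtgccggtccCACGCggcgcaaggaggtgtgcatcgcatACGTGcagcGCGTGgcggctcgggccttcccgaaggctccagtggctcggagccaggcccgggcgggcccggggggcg
Pfkp: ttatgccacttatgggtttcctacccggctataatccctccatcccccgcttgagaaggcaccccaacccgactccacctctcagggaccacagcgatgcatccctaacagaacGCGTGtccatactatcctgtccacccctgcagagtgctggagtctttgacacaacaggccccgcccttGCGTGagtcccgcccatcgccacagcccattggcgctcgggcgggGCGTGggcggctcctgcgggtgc
Egln3: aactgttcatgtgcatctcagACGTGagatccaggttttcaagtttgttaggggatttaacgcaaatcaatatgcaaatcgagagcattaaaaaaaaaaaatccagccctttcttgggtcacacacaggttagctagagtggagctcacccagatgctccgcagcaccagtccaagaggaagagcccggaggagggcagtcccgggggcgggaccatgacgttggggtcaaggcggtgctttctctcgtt
Ldha: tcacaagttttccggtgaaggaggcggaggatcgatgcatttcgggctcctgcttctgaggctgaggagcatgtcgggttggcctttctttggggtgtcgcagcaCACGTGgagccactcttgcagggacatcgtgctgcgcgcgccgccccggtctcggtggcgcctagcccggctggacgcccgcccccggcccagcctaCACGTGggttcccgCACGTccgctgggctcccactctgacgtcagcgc

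Windows were given for 31 of the 34 members, 42 windows in all, because some genes have several start sites. None was given for Epas1, Ndrg1 and Slc2a3. Ddit4 held cores 187 and 115 bases before its start, Pfkp held cores at 136, 68 and 23 bases, and Egln3 held a single core at 229 bases. P4ha2 held them at 107, 78 and 69 bases, and the window of Ldha held 5, counting both strands. A core lay in 34 of the 42 windows of members (81.0%), against 48.9% of the 18110 windows of genes on the array and 38.6% of all 32851 windows of the same length. Members' windows were also richer in G and C, with a median of 62.4% against 57.6% for genes on the array. Windows of members that passed a test below held a core in 8 of 10 (80.0%) and those of the other members in 26 of 32 (81.2%). The ETS-type core CCGGAA, read on both strands, lay in 5 of the 42 windows (11.9%), against 16.8% of those of genes on the array. A match describes letters in a window and shows no binding.

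Values are the deposited log2 RMA values, in which a step of 1 is a doubling, and array medians lay between 6.98 and 7.06. Etv2 was at 10.70 to 11.36 on the 3 wild-type positive arrays and at 7.24 to 7.85 on the other 9. The probe set may lie outside the deleted part and so may not check the deletion. Of 12 endothelial markers, 12 favoured positive over negative cells in wild types, while 11 of 12 were lower in mutant than in wild-type positive cells and 11 of 12 heart markers were higher there (limma, adjusted p under 0.05). Some arrays stood apart within their group. Xist was low on both wild-type arrays numbered 1 (10.33 for positive and 8.19 for negative cells, against 13.36 to 13.98 on the other 10), and Eif2s3y, a Y-linked gene, was high there (10.81 and 11.23, against 4.11 to 4.53). No mutant array shared this sign of male cells, so sex and genotype cannot be fully told apart in any comparison of mutant with wild-type cells. Afp, made by yolk sac endoderm, reached 11.98 on mutant positive array 1 and 5.02 and 4.04 on its fellow arrays, and the embryonic globin Hbb-y reached 11.55 on mutant negative array 2 and 5.01 and 4.71 on its fellows. On wild-type negative array 2, Hbb-y was at 5.59, against 10.80 and 11.94 on the other wild-type negative arrays. In Hbb-y, each of these 2 negative arrays was thus nearer to negative arrays of the other genotype than to its fellows. Means of the 11 erythroid markers split likewise, at 6.93, 6.01 and 7.39 in wild-type negative and 6.01, 7.06 and 5.90 in mutant negative cells. Whether their labels were exchanged was not tested, and no alternative left out both arrays. Calls that end without the arrays numbered 1 of wild types, or without the named mutant arrays, are listed with the values by array.

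Among the members, the sort in wild types set Epas1 and Egln3 apart most in positive cells and Aldoc, Ddit4 and Slc2a3 in negative cells, with Hk1 and Pfkp also higher in positive cells. Of 34 members, 4 were higher and 3 lower in positive than negative cells of wild types (limma, Benjamini-Hochberg adjusted p under 0.05 over all genes). That is 20.6% of them, against 8.24% of all 18193 genes. Their median difference was -0.01, against -0.02 for all genes. The arrays of the groups did not overlap for 14 members, against 25.2% of all genes.

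Between positive cells of the genotypes, the hypoxia targets Ddit4, Ndrg1 and P4ha2, the phosphofructokinase Pfkp and the glucose transporter Slc2a3 were higher in mutants, by 1.57-fold to 3.30-fold, and the kinase Pdk1 was lower. These are 6 of 34 members or 17.6%, against 7.97% of all genes. The median over members was 0.25 log2, against 0.01 for all genes. Above 0 lay 23 of 34 members, against 9466 of all 18193 genes. Arrays did not overlap for 16 members, against 25.7% of all genes.

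In mutants, the sort still separated Epas1 and Pfkp, which were higher in positive cells, and 0 members were lower. These 2 members are 5.88% of the set, a share close to the 5.36% of all genes, and 6 members had arrays that did not overlap, against 19.5% of all genes. With the positive and negative arrays of the same number as a replicate block, 5 members passed in place of 2, against 8.17% of all genes with the same block, as Slc2a3 (lower), Ndrg1 and P4ha2 (both higher) were added.

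Negative cells of the 2 genotypes did not differ past the threshold in any member, nor in any gene (0 of 34 and 0% of 18193). The arrays numbered 2 of both groups, whose Hbb-y values went with the other genotype, were included. At an unadjusted p under 0.05 there were 2 members, Pfkp and Car9, against 949 genes in all (5.22%). Members leaned above 0, with 28 of 34 higher in mutant negative cells, against 10517 of all 18193 genes. Their median was 0.12, against 0.03 for all genes, and 6 had arrays that did not overlap, against 11.2% of all genes. The interaction, which takes the sort difference of wild types from that of mutants, passed in 0 of 34 members, against 2.58% of all genes. At an unadjusted p under 0.05 it had 4 of 34 members, against 12.3% of all genes. With the replicate block it had 1, Ddit4, against 4.38% of all genes. All of these comparisons come from 1 fit, and comparisons that share a group share its arrays.

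**Figure D1:**
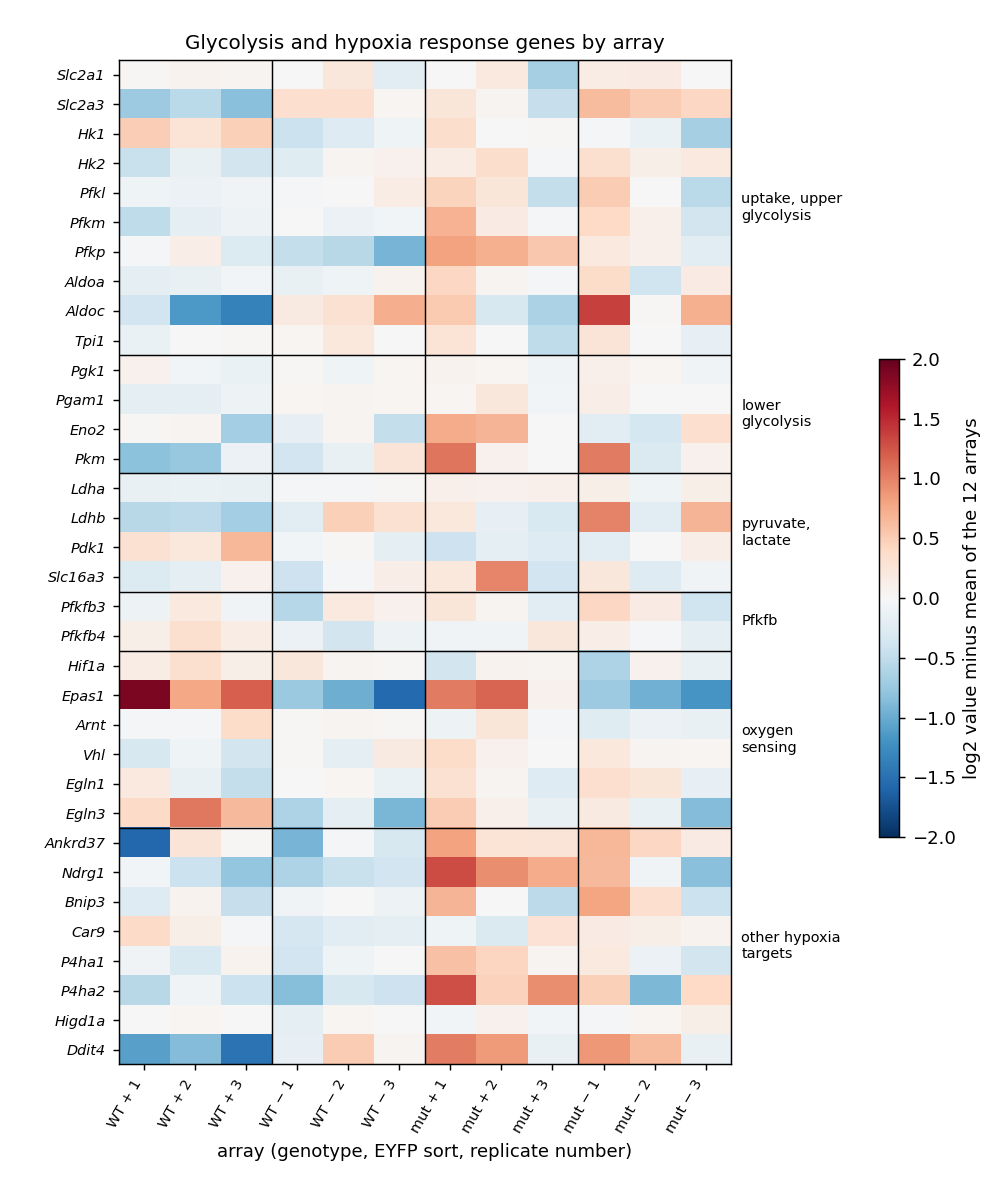
Log2 value of each of the 34 members (rows, ordered by role) on each of the 12 arrays (columns; WT wild type, mut mutant, + positive and − negative cells, then the replicate number), shown as the difference from the gene's mean over the 12 arrays. Epas1 is high in all 6 positive columns, Ddit4 is low in the 3 wild-type positive columns, and Ndrg1 and Pfkp are high in the 3 mutant positive columns.

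Among genes of hexose entry, the neuronal-type glucose transporter Slc2a3 was lowest in wild-type positive cells, and the more widely used Slc2a1 did not separate any groups. Slc2a3 had values of 12.92, 13.12 and 12.81 on the wild-type positive arrays and 13.99, 13.99 and 13.69 on the wild-type negative arrays. Mutants had 13.89, 13.71 and 13.19 in positive and 14.28, 14.16 and 14.06 in negative cells. All 3 arrays of wild-type positive cells lay below the other 9, and in both genotypes no positive array reached a negative one. Slc2a3 in wild-type positive cells was at 52.0% of its wild-type negative level (limma, -0.94 ± 0.17 log2, SE, 3 arrays per group, adjusted p = 0.00495). It was 1.57-fold higher in mutant than in wild-type positive cells (0.65 ± 0.17; limma, adjusted p = 0.0402), with a gap of no more than the step from 13.12 to 13.19 between the closest arrays. Within mutants, positive minus negative cells gave -0.57 ± 0.17 (limma, adjusted p = 0.0906; 0.0234 with the replicate block). The difference between positive cells lost its call without any of 8 single arrays (wild-type positive 1 or 3, wild-type negative 1 or 2, mutant positive 1 or 2, mutant negative 2 or 3), at adjusted p from 0.0501 to 0.140, and the wild-type sort difference lost it only without both wild-type arrays numbered 1 (0.0716). A further bright probe set of Slc2a3 gave -1.09 for the wild-type sort. Slc2a1, the ubiquitous glucose transporter, had 13.69, 13.74 and 13.71 in wild-type positive, 13.67, 13.88 and 13.43 in wild-type negative, 13.65, 13.86 and 13.00 in mutant positive and 13.81, 13.83 and 13.67 in mutant negative cells. Its groups overlapped, the lowest array being mutant positive array 3, and its differences ran from -0.27 ± 0.19 to 0.11 ± 0.19 over the 4 group comparisons. Its dimmest probe set averaged 10.93 in wild-type and 11.54 in mutant positive cells, with overlapping arrays, and a further bright probe set 13.49 and 13.42.

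The hexokinases trap glucose in the cell as glucose-6-phosphate. Hk1 had values of 9.75, 9.53 and 9.73 in wild-type positive and 8.83, 9.00 and 9.17 in wild-type negative cells, and 9.62, 9.27 and 9.28 in mutant positive and 9.22, 9.13 and 8.59 in mutant negative cells. Positive arrays lay above negative arrays in both genotypes, though in mutants by little (9.27 against 9.22). Hk1 was 1.59-fold higher in positive than negative cells of wild types (0.67 ± 0.17; limma, adjusted p = 0.0315), and the mutant sort gave 0.41 ± 0.17 (adjusted p = 0.249). The wild-type call ended without wild-type positive array 1 or 3 or wild-type negative array 1 or 2 (adjusted p 0.0906 to 0.123), without both arrays numbered 1 (0.262) and with the mean of its probe sets (0.146), the other of which was dim. Hk2, the hypoxia-inducible hexokinase, had 10.88, 11.17 and 10.94 in wild-type positive, 11.07, 11.36 and 11.40 in wild-type negative, 11.46, 11.66 and 11.27 in mutant positive and 11.63, 11.43 and 11.51 in mutant negative cells. No wild-type positive array reached a mutant one, and the 0.47 ± 0.13 between positive cells (95% interval 0.17 to 0.76) missed the threshold narrowly (limma, adjusted p = 0.0560).

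Of the phosphofructokinases, which commit the sugar to glycolysis, the platelet-type Pfkp changed and the liver-type Pfkl and muscle-type Pfkm did not pass. Pfkp had 9.76, 9.91 and 9.50 in wild-type positive and 9.31, 9.23 and 8.86 in wild-type negative cells, and 10.58, 10.49 and 10.32 in mutant positive and 9.98, 9.89 and 9.58 in mutant negative cells. The 3 mutant positive arrays stood above the other 9, the 3 wild-type negative arrays below the other 9, and no compared groups overlapped. Pfkp is the member that passed in 3 comparisons: it was 1.51-fold higher in positive than negative cells in wild types (0.59 ± 0.16, adjusted p = 0.0395), 1.57-fold in mutants (0.65 ± 0.16, adjusted p = 0.0330) and 1.67-fold higher in mutant than wild-type positive cells (0.74 ± 0.16, adjusted p = 0.0136; limma). The interaction was 0.06 ± 0.22 (95% interval -0.43 to 0.54). Between negative cells it differed by 0.68 ± 0.16, a size like that in positive cells, at adjusted p = 0.884 in a comparison where no gene passed. The wild-type sort call ended without any of 6 single arrays (wild-type positive 1 or 2, wild-type negative 2 or 3, mutant positive 2, mutant negative 2; adjusted p 0.0511 to 0.151), and the mutant sort call without any of 4 (mutant positive 1 or 2, mutant negative 2 or 3; 0.0724 to 0.127). That between positive cells ended without mutant positive array 1 or wild-type positive array 3 (0.0531 and 0.0527). All 3 ended with the mean of its probe sets (adjusted p 0.255 to 0.503).

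Pfkm ranged from 8.70 to 9.11 in wild-type positive and from 9.19 to 9.90 in mutant positive cells, without overlap, and differed by 0.55 ± 0.21 (limma, adjusted p = 0.151). Pfkl ranged from 11.38 to 12.43 over the 12 arrays, with its highest values on the mutant arrays numbered 1. The widest spread in the upper pathway was that of Aldoc, the brain-type aldolase that cleaves the sugar into trioses. Aldoc had 7.86, 7.09 and 6.89 in wild-type positive, 8.43, 8.55 and 8.96 in wild-type negative, 8.77, 7.92 and 7.61 in mutant positive and 9.60, 8.27 and 8.95 in mutant negative cells. Wild-type positive arrays lay below wild-type negative ones, while mutant arrays overlapped between sorts. Aldoc in wild-type positive cells was at 38.8% of the negative level (-1.37 ± 0.38; limma, adjusted p = 0.0476), and 0.82 ± 0.38 separated mutant from wild-type positive cells (adjusted p = 0.228). The call ended without any of 7 single arrays (wild-type positive 2 or 3, any wild-type negative, mutant positive 2, mutant negative 3; adjusted p 0.0617 to 0.165), and a dim further probe set gave 0.10. By their brightest probe sets, the ubiquitous Aldoa (12.55 to 13.36) and the triose isomerase Tpi1 (12.78 to 13.55) had no difference beyond 0.27 log2 in size in any group comparison. A dimmer probe set of Aldoa averaged 11.06 in wild-type and 11.72 in mutant positive cells, and another 10.54 and 10.47.

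In lower glycolysis, where the ATP is gained, 0 of 4 members passed in any comparison. Pgk1, phosphoglycerate kinase, varied least of the 4, with 14.06 to 14.28 over the 12 arrays and differences from -0.03 to 0.05. Pgam1, the phosphoglycerate mutase, lay at 13.07 to 13.16 in wild-type positive cells, below the other 9 arrays (13.20 to 13.49), a difference of 0.23 ± 0.09 between positive cells (limma, adjusted p = 0.182). Pkm, pyruvate kinase, ranged from 10.75 to 11.46 in wild-type positive, from 11.20 to 11.84 in wild-type negative, from 11.57 to 12.65 in mutant positive and from 11.30 to 12.62 in mutant negative cells. The mutant arrays numbered 1 of both sorts stood above the rest. The difference between positive cells was 0.95 ± 0.36 (95% interval 0.15 to 1.75; adjusted p = 0.149), and the wild-type sort gave -0.48 ± 0.36 (adjusted p = 0.586; 0.0325 with the replicate block, against 11.9% of all genes passing with it). Eno2, the neuronal enolase, ranged from 5.33 to 6.75, around the lower quartile of the arrays (6.16 to 6.31), and differed by 0.67 ± 0.27 between positive cells (adjusted p = 0.167).

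Pdk1, the kinase that blocks pyruvate dehydrogenase and so keeps pyruvate from mitochondria, went against most members. Its values were 12.33, 12.23 and 12.69 in wild-type positive, 11.97, 12.06 and 11.85 in wild-type negative, 11.61, 11.83 and 11.77 in mutant positive and 11.80, 12.03 and 12.16 in mutant negative cells. All 3 arrays of wild-type positive cells stood above the other 9. Pdk1 in mutant positive cells was at 62.4% of the wild-type positive level (-0.68 ± 0.14; limma, adjusted p = 0.0109). The sort gave 0.46 ± 0.14 in wild types (adjusted p = 0.0710) and -0.26 ± 0.14 in mutants (adjusted p = 0.425). The interaction was -0.72 ± 0.20 (95% interval -1.15 to -0.29) and did not pass (adjusted p = 0.0942). The call between positive cells kept its side of the threshold without each single array and ended without mutant positive array 1 and mutant negative array 2 together (0.0591), when only the groups compared were fitted (0.0531) and with the mean of its probe sets (0.257). The next-brightest probe sets gave -0.40 and -0.27.

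Ldha, the lactate dehydrogenase subunit that favours lactate, had 13.38, 13.39 and 13.37 in wild-type positive, 13.50, 13.50 and 13.54 in wild-type negative, 13.62, 13.60 and 13.63 in mutant positive and 13.64, 13.44 and 13.65 in mutant negative cells. Arrays of wild-type positive cells lay below the other 9, by steps far smaller than for Pdk1. The difference between positive cells was 0.24 ± 0.08 (limma, adjusted p = 0.112), and the sort gave -0.13 ± 0.08 in wild types. Ldhb, the subunit that favours pyruvate, ranged from 10.04 to 10.20 in wild-type positive and from 10.49 to 11.20 in wild-type negative cells (-0.77 ± 0.28; adjusted p = 0.139). Its further probe sets gave larger sort differences, -1.70, -1.32 and -1.36, at adjusted p of 0.0542, 0.0495 and 0.0561 over all probe sets. Slc16a3, which exports lactate, was at 9.16 on mutant positive array 2 and between 7.76 and 8.41 on the other 11 arrays.

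The bifunctional enzymes Pfkfb3 and Pfkfb4 make the activator fructose-2,6-bisphosphate, and neither passed in any comparison. Pfkfb4 ranged from 8.66 to 8.86 in wild-type positive and from 8.18 to 8.44 in wild-type negative cells, a difference of 0.39 ± 0.13 (limma, adjusted p = 0.0915). Pfkfb3 overlapped in every comparison, at differences from -0.03 to 0.16.

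**Figure D2:**
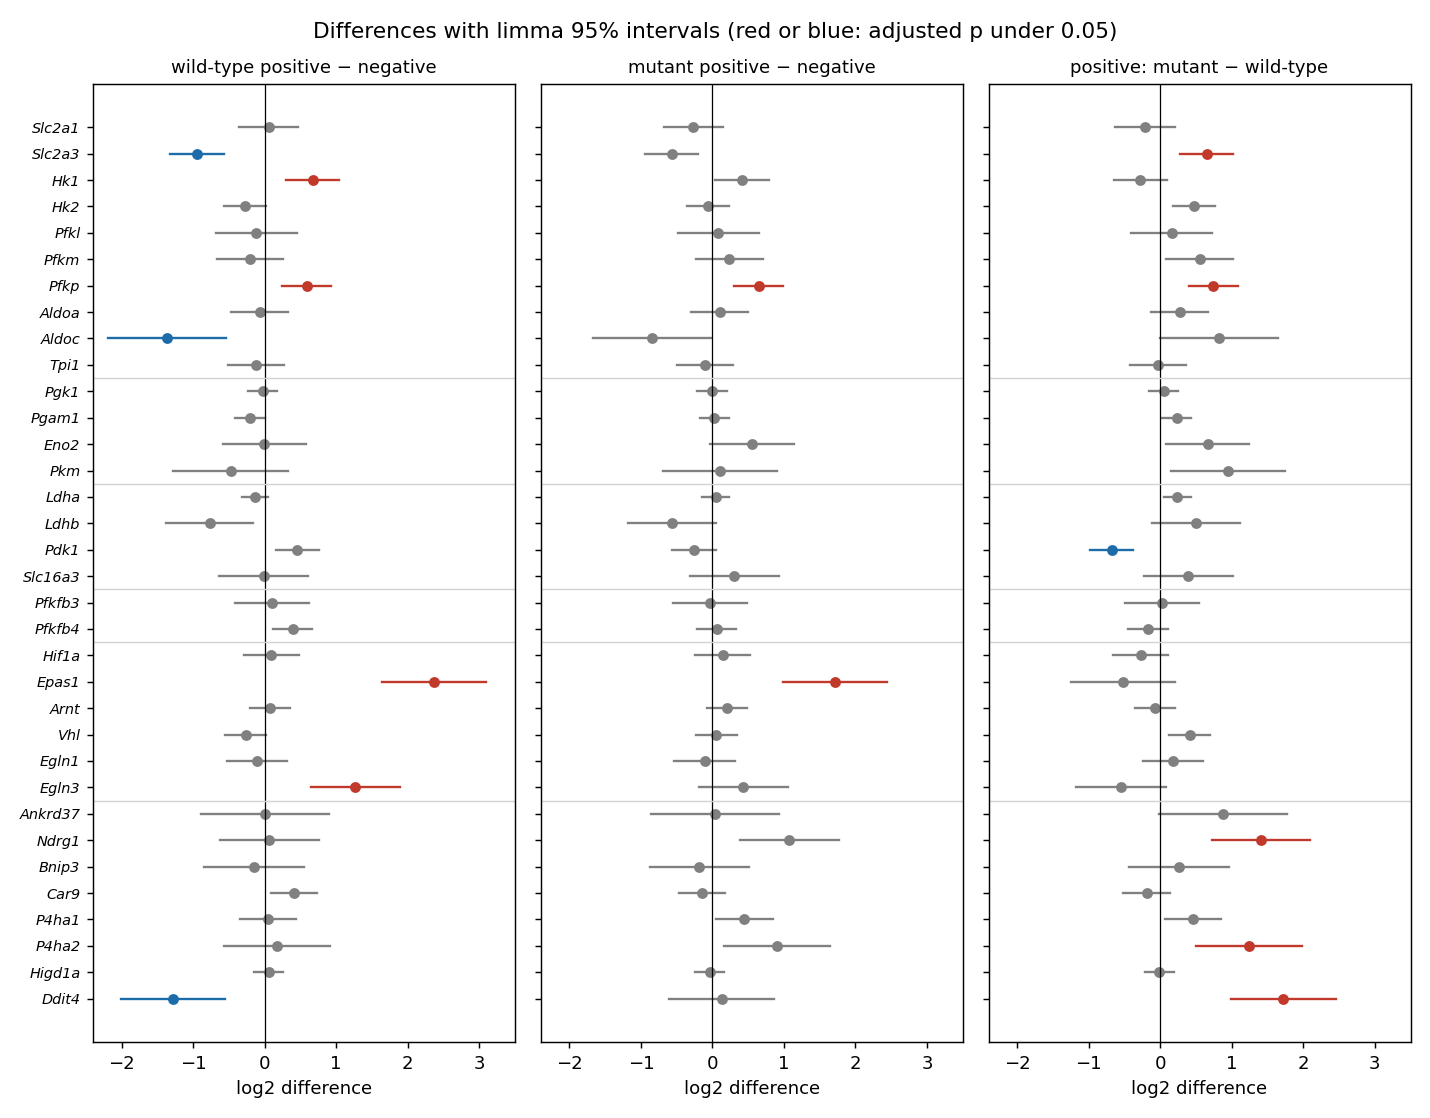
Log2 differences of the 34 members with limma's 95% intervals for positive minus negative cells in wild types (left), positive minus negative cells in mutants (middle) and mutant minus wild-type positive cells (right). Coloured points passed an adjusted p of 0.05 (red higher, blue lower): 7, 2 and 6 members.

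Of the oxygen-sensing genes, the α subunit Epas1 followed the sort and Hif1a did not. Epas1 had values of 11.97, 10.85 and 11.27 in wild-type positive and 9.34, 9.11 and 8.53 in wild-type negative cells, and 11.12, 11.24 and 10.17 in mutant positive and 9.35, 9.12 and 8.91 in mutant negative cells. Each of the 6 positive arrays stood above each of the 6 negative ones, and mutant positive array 3 was the lowest of the positive arrays. Epas1 was 5.17-fold higher in positive than negative cells in wild types (2.37 ± 0.33; limma, adjusted p = 0.000894) and 3.28-fold higher in mutants (1.72 ± 0.33; adjusted p = 0.0107). Mutant minus wild-type positive cells gave -0.52 ± 0.33 (95% interval -1.25 to 0.21; adjusted p = 0.403), and the interaction was -0.65 ± 0.47 (95% interval -1.68 to 0.37; adjusted p = 0.673). The wild-type call held under all 22 alternatives. The mutant call ended only without mutant positive array 1 and mutant negative array 2 together (adjusted p = 0.0886). A dim further probe set of Epas1 showed 0.06 for the wild-type sort. Beside it, the endothelial markers went with the sort in wild types and for 2 of 12 in mutants, at mean levels over the list of 10.01 to 10.28 in wild-type positive, 7.26 to 7.31 in mutant positive and 6.78 to 6.94 in negative cells. Their part in the Epas1 difference was not tested, and in bulk samples fewer cells of a type and less RNA per cell cannot be told apart.

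Hif1a had 12.62, 12.80 and 12.60 in wild-type positive, 12.70, 12.53 and 12.51 in wild-type negative, 12.12, 12.56 and 12.53 in mutant positive and 11.87, 12.57 and 12.34 in mutant negative cells. The mutant arrays numbered 1 of both sorts were the lowest, and every compared pair of groups overlapped except wild-type and mutant positive cells (12.60 against 12.56). Its differences ran from -0.32 ± 0.17 to 0.15 ± 0.17. A dimmer probe set of Hif1a was lower in mutant than wild-type positive cells (9.90, 9.80 and 10.01 against 9.31, 9.25 and 9.45; -0.57 ± 0.15; limma, adjusted p = 0.0470 over all probe sets), where the brightest gave -0.27. Arnt, the shared partner subunit, ranged from 8.38 to 8.99, with differences from -0.21 to 0.20.

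Among the genes that turn the α subunits over, Egln3 moved and Egln1 and Vhl did not pass. Egln3, a prolyl hydroxylase that is itself a HIF target, had 9.82, 10.48 and 10.09 in wild-type positive, 8.81, 9.25 and 8.52 in wild-type negative, 9.93, 9.54 and 9.27 in mutant positive and 9.61, 9.29 and 8.56 in mutant negative cells. Wild-type arrays separated by sort, while mutant arrays overlapped (9.27 in positive against 9.61 in negative cells). Egln3 was 2.41-fold higher in positive than negative cells of wild types (1.27 ± 0.29; limma, adjusted p = 0.0175), and its further probe set gave 1.00 (adjusted p = 0.00370 over all probe sets). The mutant sort gave 0.43 ± 0.29 (adjusted p = 0.557), and the interaction of -0.84 ± 0.40 did not pass (adjusted p = 0.446), so a difference between the genotypes is not shown. The call ended without wild-type positive array 2 or wild-type negative array 1 or 3 (adjusted p 0.0629 to 0.0785). Vhl ranged from 9.14 to 9.42 in wild-type positive and from 9.52 to 9.87 in mutant positive cells (0.41 ± 0.13; adjusted p = 0.0799). A dimmer probe set of Vhl went the other way, at a mean of 6.91 in wild-type and 6.66 in mutant positive cells. Egln1, the main oxygen-dependent hydroxylase, ranged from 10.50 to 11.31, with differences from -0.11 to 0.18. Its dimmer probe set averaged 8.78 in wild-type and 9.34 in mutant positive cells, the latter from arrays at 9.26, 10.34 and 8.42.

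**Figure D3:**
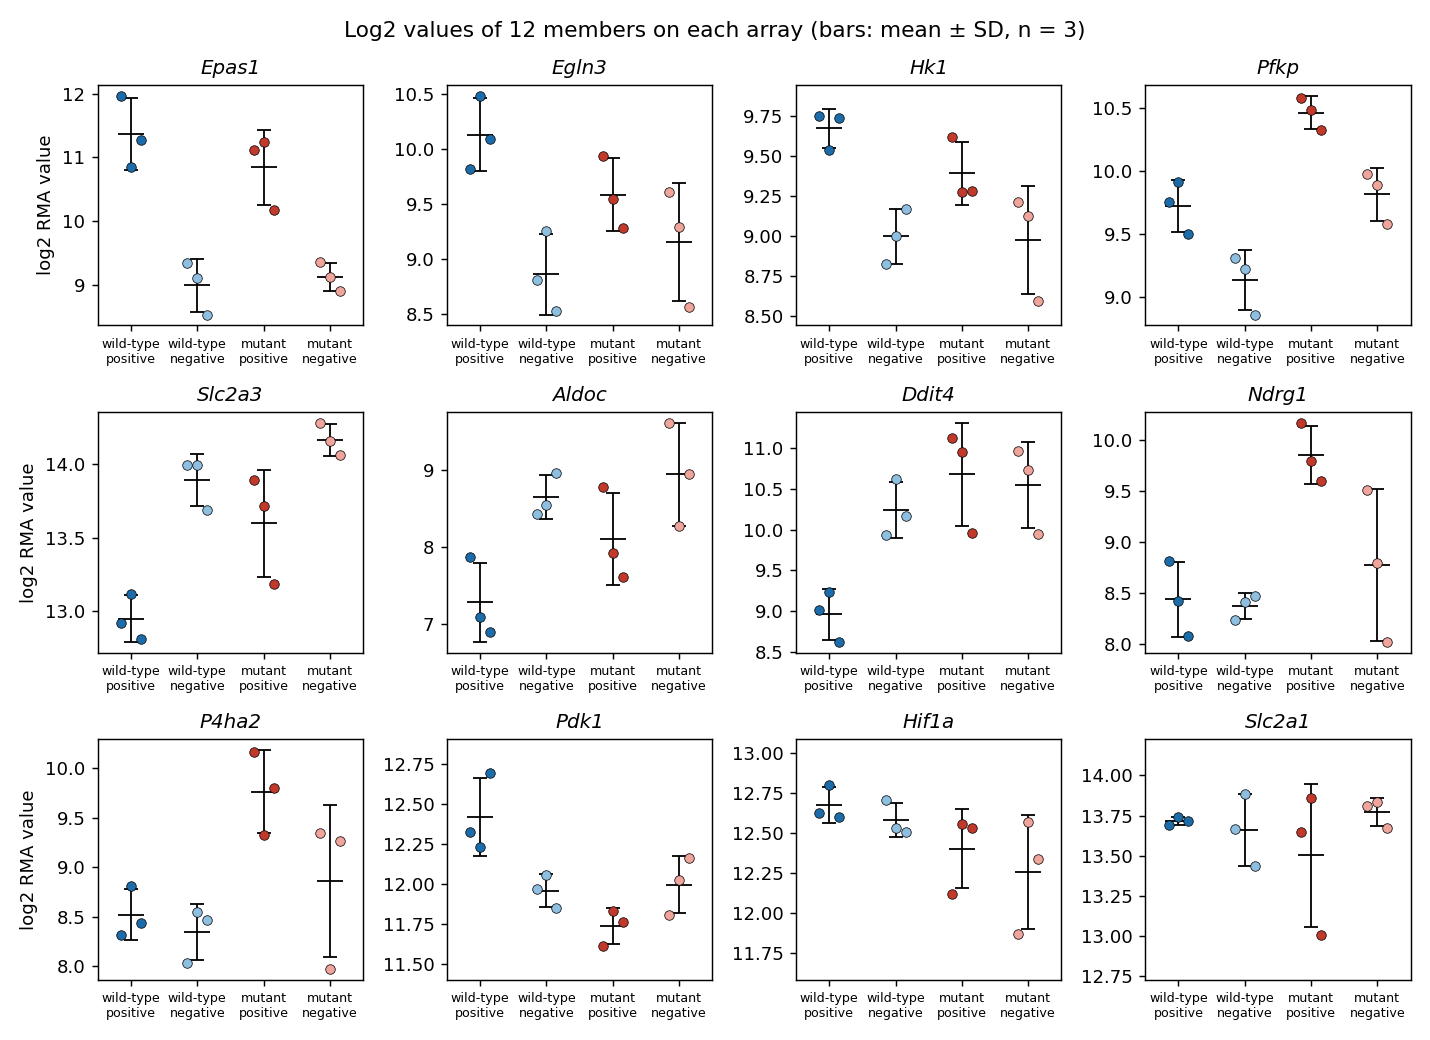
Log2 RMA values of 12 members on each array (points) with the mean ± SD of each group of 3 (bars); the vertical axes differ between panels and do not start at 0. Epas1 separates by sort in both genotypes, Pfkp and Ndrg1 are highest in mutant positive cells, and Ddit4 and Slc2a3 are lowest and Pdk1 highest in wild-type positive cells.

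Ddit4, a stress-induced inhibitor of the growth kinase complex mTORC1 whose window above holds cores at 187 and 115 bases, had the largest difference between positive cells of any member. It had 9.02, 9.24 and 8.62 in wild-type positive, 9.93, 10.62 and 10.17 in wild-type negative, 11.13, 10.95 and 9.96 in mutant positive and 10.97, 10.73 and 9.95 in mutant negative cells. All 3 arrays of wild-type positive cells lay below the other 9, and the arrays numbered 3 were the lowest of both mutant groups. Ddit4 was 3.30-fold higher in mutant than wild-type positive cells (1.72 ± 0.33; limma, adjusted p = 0.00868), a call that held under all 22 alternatives. In wild types it was at 41.1% of the negative level in positive cells (-1.28 ± 0.33; adjusted p = 0.0370), while in mutants the sort gave 0.13 ± 0.33 (adjusted p = 0.930). The interaction of 1.41 ± 0.47 (95% interval 0.37 to 2.45) did not pass (adjusted p = 0.196) but did with the replicate block (0.00553), in which all 3 wild-type pairs were below 0 (-0.92, -1.38 and -1.54) and all 3 mutant pairs slightly above (0.16, 0.22 and 0.01). The wild-type sort call ended without wild-type positive array 1 or 3 or any wild-type negative array (adjusted p 0.0565 to 0.146).

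Ndrg1, a hypoxia- and stress-induced gene, and P4ha2, a subunit of the collagen prolyl 4-hydroxylase, were high in mutant positive cells. Ndrg1 had 8.81, 8.42 and 8.08 in wild-type positive, 8.23, 8.41 and 8.47 in wild-type negative, 10.16, 9.79 and 9.60 in mutant positive and 9.51, 8.79 and 8.02 in mutant negative cells. The mutant positive arrays stood above the other 9, though mutant negative array 1 came close. Ndrg1 was 2.66-fold higher in mutant than wild-type positive cells (1.41 ± 0.31; limma, adjusted p = 0.0178), and its 4 further probe sets gave 0.20 to 1.40, all in the same direction. The sort gave 0.07 ± 0.31 in wild types and 1.08 ± 0.31 in mutants (adjusted p = 0.0811; 0.0187 with the replicate block), and the interaction of 1.01 ± 0.44 did not pass (adjusted p = 0.380). The call between positive cells ended without mutant positive array 1 (0.0663) or wild-type positive array 3 (0.0660). P4ha2 had 8.31, 8.81 and 8.44 in wild-type positive, 8.03, 8.55 and 8.46 in wild-type negative, 10.16, 9.33 and 9.79 in mutant positive and 9.34, 7.97 and 9.27 in mutant negative cells. Mutant positive arrays lay above all wild-type arrays, and mutant negative cells spanned both levels, with array 2 the lowest of the 12. P4ha2 was 2.36-fold higher in mutant than wild-type positive cells (1.24 ± 0.34; adjusted p = 0.0454), a call that ended without any of 8 single arrays (any wild-type array, mutant positive 1 or 3; adjusted p 0.0563 to 0.150). The mutant sort gave 0.90 ± 0.34 (adjusted p = 0.194; 0.0107 with the replicate block).

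The other 5 hypoxia targets passed in no comparison. P4ha1, an isoform of the same subunit as P4ha2, differed by 0.46 ± 0.18 between positive cells (limma, adjusted p = 0.161). A dimmer probe set of P4ha1 went the other way, at a mean of 7.99 in wild-type and 7.76 in mutant positive cells. Ankrd37 lay at 9.37 to 10.01 on the 6 mutant arrays and at 7.63 to 9.46 on the 6 wild-type arrays, with wild-type positive array 1 the lowest, and its difference between positive cells was 0.88 ± 0.41 (adjusted p = 0.234). Bnip3, a mitophagy receptor, ranged from 12.06 to 13.37 and was highest on the mutant arrays numbered 1. Car9, a carbonic anhydrase used as a marker of hypoxia, stayed low at 5.94 to 6.67, near the lower quartile of the arrays. Higd1a, a mitochondrial protein, varied least among these targets by its brightest probe set (13.09 to 13.39), with differences from -0.04 to 0.08. Its dimmer probe sets were lower in wild-type positive than wild-type negative cells, without overlap. One ranged from 9.86 to 10.41 against 10.47 to 10.93, the other from 6.33 to 6.67 against 6.76 to 7.28. In mutants, arrays of the sorts overlapped in both of these probe sets.

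**Figure D4:**
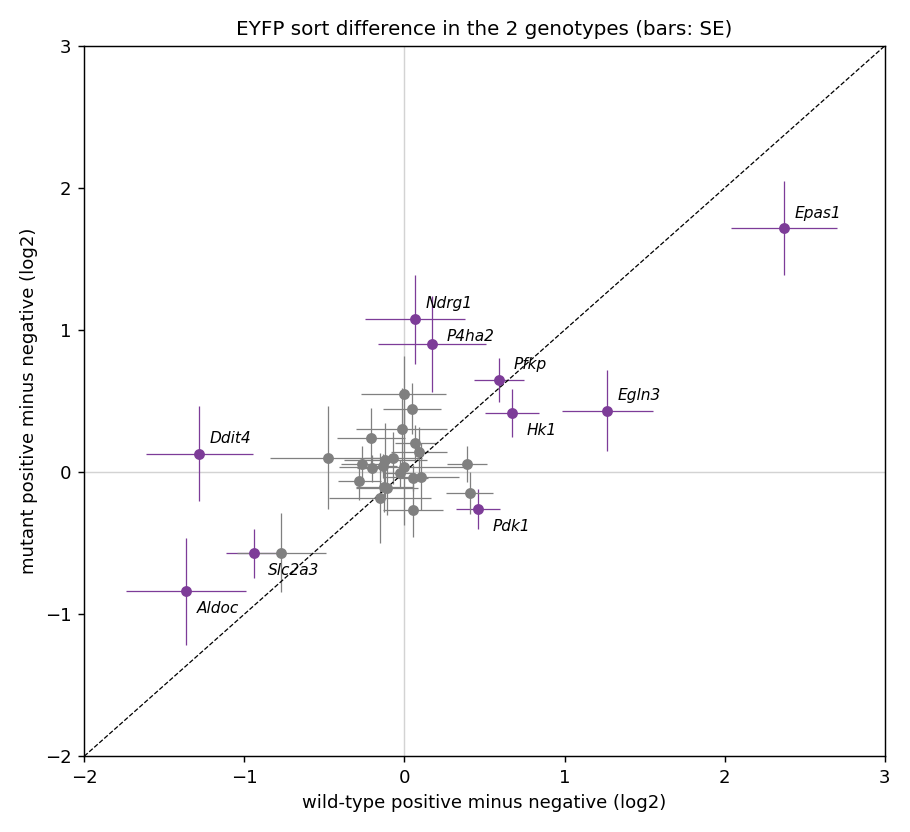
Positive minus negative difference (log2) of each of the 34 members in wild types (horizontal) against that in mutants (vertical), with limma's SE as bars and the diagonal of equal differences; coloured points are the 10 members that passed in any comparison. Epas1 lies far to the upper right near the diagonal, Ddit4 lies to the left at about 0 in mutants, and Ndrg1 and P4ha2 lie above at about 0 in wild types.

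Array by array, the members' lean towards higher values in mutants was seen mostly on 3 arrays. Mutant positive arrays 1 and 2 had 27 and 28 of 34 members above their mean over the 12 arrays, and mutant negative array 1 had 27. Over all genes these shares were 53.5%, 44.3% and 62.8%, so the last array lay higher for all genes too. The remaining mutant arrays had 12 to 16, and the 6 wild-type arrays 9 to 18. Among the 3 arrays of its group, mutant negative array 1 was the highest for 27 of 34 members, against 45.3% of all genes, and mutant positive array 1 for 22 of 34, against 41.4%. The median deviation of members was 0.33 on mutant positive array 1 and 0.22 on mutant negative array 1, against 0.02 and 0.06 for all genes. Without mutant positive array 1 and mutant negative array 2, Ddit4 and P4ha2 passed between positive cells, and Slc2a3, Pfkp, Pdk1 and Ndrg1 did not (limma, adjusted p 0.0591 to 0.159). In the mutant sort both calls then ended, at an adjusted p of 0.0886 for Epas1 and 0.156 for Pfkp, while Aldoc and Ldhb passed, lower in positive cells. In the wild-type sort Pfkp did not pass either (0.0619). Without both wild-type arrays numbered 1, Epas1 alone passed for the wild-type sort, the other 6 being at 0.0647 to 0.262. Between positive cells Slc2a3 (0.129) and P4ha2 (0.150) then missed the threshold and the other 4 calls passed, and in the mutant sort Pfkp missed it (0.0555). The 3′ probe set of actin exceeded its 5′ probe set, a gap that widens as RNA breaks down, by 1.40 to 1.62 in mutant positive, 1.87 to 2.72 in mutant negative, 1.54 to 3.05 in wild-type positive and 1.57 to 3.14 in wild-type negative cells. Its part in the members' values was not tested.

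**Figure D5:**
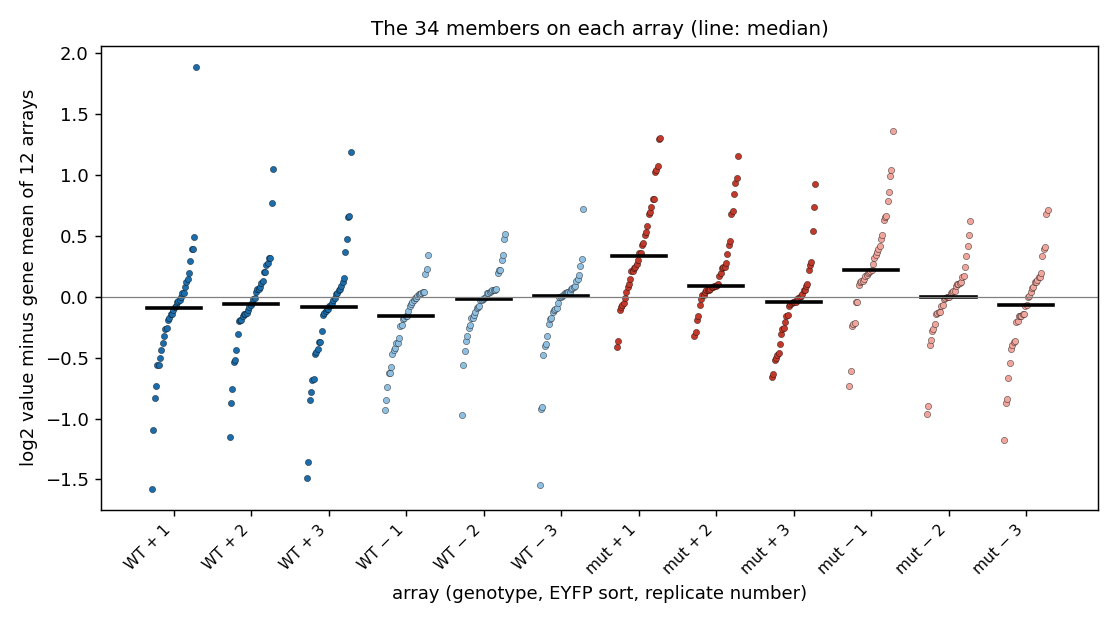
Deviation of each of the 34 members from its mean over the 12 arrays (points, log2) on each array, with the median as a line. The medians are highest on mutant positive array 1 (0.33) and mutant negative array 1 (0.22), and the other 10 lie between -0.16 and 0.09.

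Further genes of the same pathways were read from lists that hold no member. Of 34 other glycolysis and glucose genes, 4 were higher in mutant than wild-type positive cells and 0 lower (11.8%, against 7.97% of all genes). The muscle isoforms Pgam2 (1.80 ± 0.30; limma, adjusted p = 0.00332) and Eno3 (1.51 ± 0.27; adjusted p = 0.00546) led, followed by the phosphoglucomutase Pgm1 (1.40) and Pdk3 (0.85). Pgam2 had 9.86, 9.19 and 8.84 in mutant positive cells and 6.96 to 7.92 on the other 9 arrays, and its interaction passed (1.89 ± 0.42; adjusted p = 0.0397), as did that of Eno3 (1.72; 0.0392). In the wild-type sort 0 of these genes were higher and 3 lower (8.82%, a share near the 8.24% of all genes): Slc16a1, a lactate and pyruvate transporter (-0.71), Ldhc (-0.81) and Hkdc1 (-0.52). Slc16a1 was also lower in mutant positive than mutant negative cells (-0.81; adjusted p = 0.0229), where Pgam2 was higher (1.82).

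Of 44 other hypoxia response genes, 3 were higher and 1 lower in mutant than wild-type positive cells (9.09%, a share near the 7.97% of all genes). Vegfa, the endothelial growth factor, had 8.91, 9.04 and 8.98 in mutant positive cells and 8.17 to 8.54 on the other 9 arrays, and was 1.42-fold higher than in wild-type positive cells (0.50 ± 0.09; limma, adjusted p = 0.00613) and 1.63-fold higher than in mutant negative cells (0.70 ± 0.09; adjusted p = 0.00123). Mxi1, a MYC antagonist (1.05), and Ppp1r3c, which promotes glycogen storage (1.52), were also higher. Nos3, the endothelial nitric oxide synthase, was lower (-2.15), and it was higher in positive cells of the wild-type sort (2.13), where Arnt2, Mxi1 and Ak4 were lower (-0.96 to -0.54). None of 11 pentose phosphate genes passed in any comparison (limma; 1 at an unadjusted p under 0.05 for the wild-type sort and 2 between positive cells). Of 41 genes of the citric acid cycle and respiratory chain, Sdhd, a succinate dehydrogenase subunit, was the gene that passed, at 0.69 between positive cells and 0.74 in the mutant sort. This list also leaned towards mutants, so the lean was not particular to the members. Between positive cells 30 of its 41 genes lay above 0 and 11 below (median 0.16), against 23 and 11 of the 34 members (0.25). Between negative cells these were 29 and 12 (0.06), against 28 and 6 (0.12).

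Marker lists of other cell types moved with the same groups. Mean levels of 12 heart markers were 11.42 to 11.77 in mutant positive cells and 9.46 to 10.38 on the other 9 arrays, and all 12 were higher in mutant positive than mutant negative cells. The 11 erythroid markers had means of 9.31 to 10.05 in wild-type positive cells and 5.87 to 7.39 elsewhere. Neural markers were lower in positive than negative cells for 7 of 10 in wild types and 8 of 10 in mutants, with means of 7.74 to 8.88 in positive and 10.22 to 10.62 in negative cells. Epithelial markers were lower there for 5 of 10 and 6 of 10, while 1 was higher in each genotype (Sox17 at 2.88 in wild types, Krt8 at 1.13 in mutants). Sox17 is also in the endothelial list and was counted there too. Yolk sac markers averaged 9.16 on mutant positive array 1 and 6.62 and 6.54 on the other mutant positive arrays. Of 17 dissociation stress genes, 7 were higher in positive cells of wild types and 3 in those of mutants, and 2 were lower in mutant than wild-type positive cells. Of 15 proliferation genes, Pcna alone passed, lower in wild-type positive than negative cells (-0.34). The part of cell composition or dissociation in the members' differences was not tested.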

How the data were processed

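The authors deposited log2 values from RMA, as the submitters' processing notes name it; its settings were not given in the sources used here. Per the labels, Trizol RNA was amplified and biotin-labelled with the MessageAmpII-Biotin Enhanced Kit. Having only 3 arrays in a group limits precision.

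Of 45101 probe sets, 34945 had a single symbol in the platform table, 932 had several and 9160 were not listed there. Each of 18193 genes was represented by its probe set of highest mean across arrays; no dim genes were removed. Of the 34 members, 21 had several probe sets, 78 in all. Differences were tested, two-sided, with limma (version 3.58.1, under R 4.3.3; lmFit, contrasts.fit, eBayes) in 1 model of the 4 groups with 8 residual degrees of freedom. Benjamini-Hochberg adjustment ran over all genes within each of 5 comparisons, and an adjusted p under 0.05 passed. The code was tested on simulated data. Errors are limma's standard errors unless SD is written.

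Members and gene lists were chosen with earlier results of these data known. Every member is named. Values by array are given for members past the threshold in any comparison and for Hif1a, Epas1, Slc2a1, Hk2, Ldha and Pdk1; of the further lists, up to 4 genes past the threshold with the smallest p per comparison. Probe sets of members named beside the brightest were chosen after their values were seen. Of 22 alternatives, 20 were planned and 2 added after seeing the data. Promoter windows were read from a RefSeq table of GRCm38.p6 and searched with Python 3.11.15.

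Deviations from group means of positive and negative arrays with the same number correlated across genes at 0.190, 0.102 and 0.202 for wild types and 0.554, 0.403 and 0.413 for mutants. Numbers were therefore taken to pair the sorts of a genotype, but differently numbered arrays were not correlated. This pairing comes from the same data that the replicate block was fitted to, since the labels do not state it. It remains an assumption, with the lower correlations in wild types.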

Additional observations from a re-analysis of the deposited data

Results flagged for a closer look

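For 3 of 34 members, all 3 same-numbered pairs moved in opposite directions in the 2 genotypes, positive minus negative. No share of all genes was at hand for this rule, so whether 3 of 34 is many is not shown. Each value takes the sort difference of wild types from that of mutants, by limma's interaction, and none passed without the replicate block. Ddit4 gave 1.41 ± 0.47 log2 (adjusted p = 0.196; 0.00553 with the block), from pairs of -0.92, -1.38 and -1.54 for wild types and 0.16, 0.22 and 0.01 for mutants. Pdk1 gave -0.72 ± 0.20 (adjusted p = 0.0942; 0.0848 with the block), from pairs of 0.35, 0.18 and 0.84 for wild types and -0.19, -0.19 and -0.40 for mutants. Pfkm gave 0.44 ± 0.30 (adjusted p = 0.642; 0.223 with the block), from pairs of -0.50, -0.08 and -0.05 for wild types and 0.30, 0.06 and 0.35 for mutants, several of them close to 0.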

How the results depend on the processing

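All 15 calls of members kept their sign under the alternatives run, and 2 passed under all of them (Epas1 in the wild-type sort, Ddit4 between positive cells). The other 13 lost the threshold under at least 1 of them, and of 155 member differences that did not pass, 9 passed under some. For the wild-type sort, where 7 members passed, 4 passed without collapsing probe sets to genes, 1 without both wild-type arrays numbered 1, and 3 to 7 when single arrays were left out. Between positive cells, where 6 passed, 2 passed without mutant positive array 1 and mutant negative array 2, and 2 to 6 when single arrays were left out. With the mean of all probe sets, Slc2a3, Pfkp and Pdk1 were lost between positive cells and Hk2 was gained. Without collapsing probe sets to genes, Slc2a3 and P4ha2 were lost. P4ha2 was also lost with a further quantile normalization, and Slc2a3 and Pdk1 with only the groups compared. For the mutant sort, where 2 passed, 1 passed with the mean of all probe sets, with a further quantile normalization, with only the groups compared, with a trended and robust fit and without both wild-type arrays numbered 1, and 1 to 3 when single arrays were left out. Without mutant positive array 1 and mutant negative array 2 the number was again 2, but of other genes: Epas1 and Pfkp were lost and Aldoc and Ldhb gained. The count stayed at 0 between negative cells under every alternative, and at 0 to 1 for the interaction when single arrays were left out (1, Ddit4, without mutant positive array 3). With the pairs of a genotype as a replicate block, 5 members passed in the mutant sort and 1 in the interaction. The block ended 0 calls and added 5: Slc2a3, Ndrg1 and P4ha2 in the mutant sort, Ddit4 in the interaction and Pkm in the wild-type sort. It changed no other call. Leaving out arrays also reduces the number of arrays tested; the cause of the other losses was not tested. Signal over background was not given, so differences of dim genes such as Car9 and Eno2 have an uncertain size.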
